A study of Mus musculus with 7 samples.

Results

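The genes described here are 10 members of the TNF superfamily in mouse bone-marrow-derived macrophages (BMDMs): 5 ligands (Tnf, Ltb, Tnfsf9, Tnfsf10 and Tnfsf15) and 5 receptors (Tnfrsf1a, Tnfrsf1b, Tnfrsf11a, Tnfrsf21 and Fas). They were chosen by name, and each symbol was found in both deposited expression tables, that is 10 of 48440 genes in the table of the lipopolysaccharide (LPS) experiment and 10 of 55352 genes in the table of the transduction experiment.

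TNF superfamily ligands are made mainly as membrane proteins that assemble into trimers, and proteases can release some of them as soluble cytokines. Their receptors lack enzyme activity of their own and recruit adaptor proteins, which lead either to NF-kB and MAP kinase signalling or, in receptors with a death domain, to caspase activation. Macrophages are a main source of TNF, and they carry both TNF receptors: TNFR1 (Tnfrsf1a), which has a death domain and is found on most cells, and TNFR2 (Tnfrsf1b), which recruits TRAF2 and is found mostly on immune and endothelial cells.

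The macrophages were grown from wild-type C57BL/6 bone marrow in M-CSF, the growth factor that drives monocytes to become macrophages. In the LPS experiment they were left without treatment or given 100 ng/mL LPS, a bacterial TLR4 ligand, over 2 h or 4 h, each time point being 1 library without replicate. In the transduction experiment they received, 48 h before collection, a serotype 1 adeno-associated virus (AAV) that carried GFP (AAV-GFP, the control) or Shisa3 (AAV-Shisa3, given the genotype Shisa3 overexpression) under the ubiquitous CAG promoter, with 2 samples per group. No LPS is mentioned for the transduced cells, and the labels do not say that the 2 samples of a group came from separate cultures or mice, so the p-values measure only the spread between these samples, which may be technical.

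The sequence just upstream of the start site is shown for the 4 members that rose with AAV-Shisa3 and for Ltb, the neighbour of Tnf in the genome. Sequences came from the RefSeq promoter table on GRCm38.p6, which held 9 of the 10 members (not Tnfsf9). Each stretch is the 120 bases that end before both the RefSeq and the GENCODE M21 start of the gene, 5′ to 3′ on the gene's own strand, and capitals mark the motif found there.
Tnf, chr17:35202008-35202127, minus strand: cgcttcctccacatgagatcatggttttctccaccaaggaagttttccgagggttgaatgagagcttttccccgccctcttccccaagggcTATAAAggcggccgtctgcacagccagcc
Ltb, chr17:35194319-35194438, plus strand: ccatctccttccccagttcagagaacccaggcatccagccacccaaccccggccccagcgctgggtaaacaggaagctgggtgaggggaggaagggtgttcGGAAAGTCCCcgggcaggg
Tnfsf10, chr3:27316908-27317027, plus strand: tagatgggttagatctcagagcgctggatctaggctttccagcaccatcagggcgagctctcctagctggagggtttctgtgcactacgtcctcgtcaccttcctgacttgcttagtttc
Tnfrsf1b, chr4:145246871-145246990, minus strand: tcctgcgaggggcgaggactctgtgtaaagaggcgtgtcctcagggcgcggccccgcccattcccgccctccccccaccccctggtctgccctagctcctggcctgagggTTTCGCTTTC
Tnfrsf21, chr17:43016435-43016554, plus strand: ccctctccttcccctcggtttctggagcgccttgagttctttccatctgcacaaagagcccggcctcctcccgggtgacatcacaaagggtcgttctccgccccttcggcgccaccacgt

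In the 250 bases before each RefSeq start, on either strand, 4 of the 9 members held 1 match each to the motifs searched and 5 held none. The TATA box TATAAA lay 29 to 24 bases before the start of Tnf and occurred in 12.4% of 32851 RefSeq promoters. The match to the NF-kB consensus, GGAAAGTCCC, lay 87 to 78 bases before the start of Ltb, and 3.90% of the promoters held a match. The interferon-response type element, GAAA and GAAA with 2 bases of any kind between them, was matched on the opposite strand by TTTCGCTTTC, 10 to 1 bases before the start of Tnfrsf1b, against 2.98% of promoters. The AP-1 type element TGANTCA was matched by TGAGTCA 211 to 205 bases before the start of Fas, against 6.75% of promoters. These matches describe the letters in this window and show no binding. Ltb and Tnf lie side by side on chromosome 17, with 3060 bases between them on GRCm38, and Lta, the gene of lymphotoxin alpha, lies 1157 bases beyond Tnf.

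The recovered reads of the LPS experiment numbered 15588502 (0 h), 7263258 (2 h) and 32659392 (4 h), and low genes are least precise in the 2 h library. The depth of the transduced samples is unknown, since their table holds TPM only, a length-corrected share of the transcripts of a sample. Shisa3 itself was 7.88 and 10.9 TPM in the controls, against 12.3 and 17.8 TPM in the AAV-Shisa3 samples, a log2 fold change of 0.63 that did not pass the test (adjusted p = 0.138, limma). Whether transcripts of the vector were counted in these values is not given in the sources used here, so they do not measure the overexpression directly. All 8 macrophage markers were expressed in every library. In LPS their sum was 32750 RPM (reads scaled to 1000000 in a library) at 0 h, 22709 at 2 h and 18375 at 4 h, that of the dendritic cell markers 5.00, 9.91 and 16.9 RPM, and that of the B cell markers 15.1, 6.75 and 3.21 RPM. In the transduced cells 1 macrophage marker passed the test as higher (Cd14, the LPS co-receptor, 735 and 712 against 1199 and 1282 TPM, log2 fold change 0.78, adjusted p = 0.0153, limma). Both AAV-Shisa3 samples were above both controls for 2 of the 8 and below for 2 (18.2% and 41.2% of all genes). The lower 2 were Itgam (adjusted p = 0.243, limma) and Fcgr1 (1127 and 1005 against 862 and 812 TPM, adjusted p = 0.0694, limma). Of the 8 T and NK cell markers Cd3e and Ncr1 were at 0 in all 7 libraries. The summed level of those 8 was 13.0 RPM at 0 h, 27.3 at 2 h and 21.7 at 4 h of LPS, and 6.04 and 7.80 TPM with AAV-GFP against 9.32 and 11.4 TPM with AAV-Shisa3. Most of the TPM came from Cd4, at 5.76 and 7.13 against 8.82 and 10.4, which did not pass the test (adjusted p = 0.105, limma). Neutrophil markers were not at 0, and in the transduced cells 7 of the 8 were above both controls in both AAV-Shisa3 samples (18.2% of all genes). Their summed TPM was 545 and 514 with AAV-GFP and 968 and 599 with AAV-Shisa3, and 1 of them passed the test (Camp, which encodes cathelicidin, adjusted p = 0.0422, limma). Most of the sum came from S100a8 and S100a9, which did not pass (adjusted p = 0.183 and 0.216, limma). The part of these cells or genes in the results below was not tested. In bulk RNA, fewer cells of a type and less RNA per cell cannot be told apart.

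After LPS, most of the 10 chosen genes were higher. At 2 h, 8 of the 10 genes were at least 2-fold above 0 h and 0 were 2-fold below, where 20.5% of all 17854 genes kept were 2-fold higher and 24.7% lower. At 4 h, 9 were at least 2-fold higher (22.2% of all genes) and 1 was lower (23.6% of all genes). The 9 take in Ltb, from 24 reads at 4 h against 9 at 0 h. With a pseudocount of 5 the count of higher genes was 8, where that of all 17854 genes was 3018 in place of 3958. The median log2 difference of the 10 genes was 2.81 at 2 h and 3.28 at 4 h, against -0.05 and -0.04 over all genes. These folds use the authors' values, whose totals were 1.58 times (2 h) and 1.77 times (4 h) the total at 0 h. With equal library totals the median of all genes moved to -0.68 and -0.81, and the counts among the 10 were 8 higher and 1 lower at both times, where 13.7% (2 h) and 13.1% (4 h) of all genes were higher and 39.9% and 43.9% lower. With 1 library per time point there is no test, and the intervals given below cover counting error only.

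**Figure D1:**
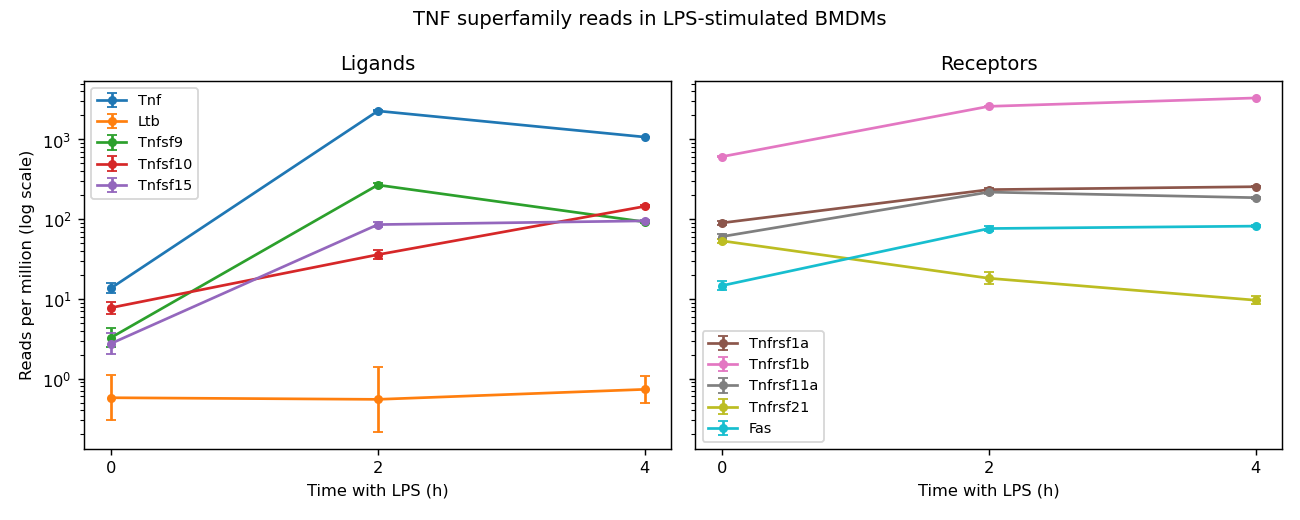
RPM (reads scaled to a fixed library total, log scale) against hours with LPS for the 5 ligands and 5 receptors, with 95% Wilson intervals from 1 library per time point. Tnf peaked at 2 h, Tnfsf10 was highest at 4 h, Tnfrsf21 was lower at both times with LPS, and the intervals of Ltb overlapped at all times.

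Tnf, the founding cytokine of the family, went from 13.7 RPM at 0 h (95% interval 11.9 to 15.6) to 2277 in the 2 h library (2242 to 2312) and 1073 in the 4 h library (1062 to 1084). The 3 intervals did not overlap, and the 2 h library was highest. In the authors' values Tnf was 263.5-fold higher at 2 h (230 to 303) and 139-fold higher at 4 h (121 to 160), or 167-fold and 78.5-fold with equal library totals. The 4 h value was 0.527 of the 2 h value, just short of a 2-fold drop, and 0.471 of it with equal library totals, which passed that limit.

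Tnfsf9, the ligand of the costimulatory receptor 4-1BB, had the same shape over time. Its level was 3.27 RPM at 0 h, 269 at 2 h and 92.6 at 4 h, with intervals that did not overlap. It was 130-fold above 0 h at 2 h (98.4 to 175) and 50.1-fold at 4 h (38.0 to 67.4). From 2 h to 4 h it was 2.59-fold lower in the authors' values and 2.90-fold lower with equal library totals.

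Tnfsf10, which encodes the death ligand TRAIL, came later. It stood at 7.76 RPM (6.497 to 9.27) at 0 h, 35.9 (31.8 to 40.6) at 2 h and 145 (141 to 149) at 4 h. The fold over 0 h was 7.32 at 2 h and 33.1 at 4 h, and it was the only member at least 2-fold higher at 4 h than at 2 h (4.51-fold, or 4.03-fold with equal library totals), where 17.9% of all genes were 2-fold higher and 15.2% lower.

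Tnfsf15, whose product TL1A binds death receptor 3, went from 2.76 RPM at 0 h (2.05 to 3.72) to 85.6 (79.2 to 92.6) at 2 h and 95.3 (92.1 to 98.8) at 4 h. Both LPS libraries were above 0 h, by 49.1-fold and 61.2-fold, and the 4 h value was 1.25 times the 2 h value (1.14 to 1.36), or 1.11 times (1.02 to 1.22) with equal library totals. Ltb, the membrane subunit of the lymphotoxin heterotrimer, was at 0.577, 0.551 and 0.735 RPM, from only 9, 4 and 24 reads. Its 3 intervals overlapped, and its direction at 2 h depended on the scaling (1.51-fold in the authors' values, 0.954-fold with equal library totals). At 4 h its fold of 2.25 had an interval of 1.01 to 5.51 in the authors' values, which just excludes 1. With equal library totals it was 1.27 (0.571 to 3.11), which includes 1. Whether Ltb differed at 4 h thus depended on the scaling, and it rests on few reads.

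Among the receptors, Tnfrsf1b was the most abundant member per length before LPS and again at 4 h. It had 609 RPM before LPS (597 to 621), 2601 after 2 h (2564 to 2638) and 3314 after 4 h (3294 to 3334). No intervals overlapped, and the folds over 0 h were 6.75 at 2 h and 9.63 at 4 h (4.27 and 5.44 with equal library totals). Tnfrsf1a, the death-domain receptor for TNF, moved less, from 89.9 RPM (85.3 to 94.7) to 235 (224 to 246) and 256 (250.1 to 261). Its fold was 4.13 at 2 h and 5.03 at 4 h, or 2.61 and 2.84 with equal library totals.

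The ratio of the 2 TNF receptors does not depend on the scaling of the libraries. Reads of Tnfrsf1b per kilobase were 4.60 times those of Tnfrsf1a before LPS (4.35 to 4.87), 7.51 times after 2 h (7.15 to 7.90) and 8.80 times after 4 h (8.61 to 8.999). The ratio of Tnf to Tnfrsf1b per kilobase was 0.0523 before LPS, 2.04 after 2 h and 0.754 after 4 h. The transcript of the ligand thus passed that of its more abundant receptor at 2 h and was below it again at 4 h. Of the summed RPKM (RPM per kilobase of transcript) of the 10 genes, Tnfrsf1b held 67.0% at 0 h, 27.5% at 2 h and 47.6% at 4 h, and Tnf held 3.50%, 56.0% and 35.9%.

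Tnfrsf11a encodes RANK, the receptor through which RANKL drives osteoclast formation. It was at 60.6 RPM (56.8 to 64.5) at 0 h, 219 (208 to 230) at 2 h and 186 (181 to 191) at 4 h, above 0 h at both times. The 4 h value was 0.952 of the 2 h value (0.901 to 1.01) in the authors' values, an interval that includes 1, and 0.851 (0.805 to 0.900) with equal library totals. Its folds over 0 h were 5.71 and 5.44. Fas, the death receptor for Fas ligand, was at 14.7 RPM (12.9 to 16.7) at 0 h, 76.4 (70.3 to 83.0) at 2 h and 81.9 (78.9 to 85.1) at 4 h. It was 8.23-fold and 9.87-fold above 0 h, and the 4 h value was 1.20 times the 2 h value (1.09 to 1.32), or 1.07 times (0.978 to 1.18) with equal library totals.

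Tnfrsf21 (death receptor 6) was the exception among the 10, though other members of the superfamily were also at least 2-fold lower at 4 h (3 other ligands and 3 other receptors, counted below). It was at 53.5 RPM (50.0 to 57.3) at 0 h, 18.2 (15.3 to 21.5) at 2 h and 9.65 (8.64 to 10.8) at 4 h, with no overlap between the intervals. In the authors' values it was 1.86-fold lower at 2 h and 3.13-fold lower at 4 h, and with equal library totals 2.94-fold and 5.55-fold lower. It was the only one of the 10 that was 2-fold lower at 4 h, under each of the scalings plotted, and per kilobase it went from rank 3 to rank 9 of the 10.

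**Figure D2:**
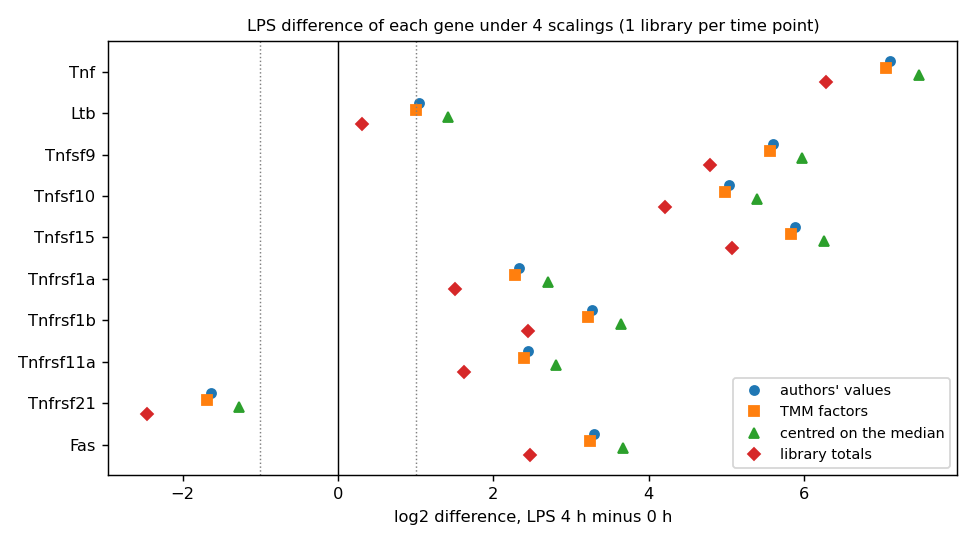
The log2 difference of each gene between 4 h and 0 h of LPS, with the authors' values, TMM factors, libraries centred on their median and equal library totals. Dotted lines mark a 2-fold difference. The other 8 genes lay above it under all 4 scalings, Tnfrsf21 lay below it under all 4, and Ltb crossed it (2.25-fold in the authors' values, 1.27-fold with equal library totals).

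The comparison of AAV-Shisa3 with AAV-GFP asked how overexpression of Shisa3 alone alters macrophage transcripts. A mean of at least 1 TPM over the 4 samples was needed for the test, which 9 of the 10 genes reached (not Tnfsf15). Of these 9, 4 rose with AAV-Shisa3 (the ligands Tnf and Tnfsf10 and the receptors Tnfrsf1b and Tnfrsf21) and 0 fell, at an adjusted p under 0.05 in limma over 11218 genes. Over all genes tested, 2.23% were called higher and 4.1% lower. Without adjustment, 5 of the 9 were higher with p under 0.05 (8.21% of all genes) and 1 was lower (19.8%). In 7 of the 9 both AAV-Shisa3 samples lay above both controls (18.2% of all genes), in 1 both lay below (41.2% of all genes), and in 1 the groups overlapped. The median log2 fold change of the 9 was 0.46, against -0.10 over all genes. Centring each sample on its median moved the all-gene median to 0.01 and the share of calls that were higher from 35.2% to 64.1%, and 5 members were then called higher. The summed neutrophil markers given above were higher in the same samples.

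No member passed without the trend of the variance with the mean (adjusted p 0.0557 to 0.0791 for the 4 genes, limma), with no filter on low values (0.105 to 0.136) or with any 1 sample left out (0.0926 to 0.187), and in each of these fits the 4 genes stayed higher. These settings called few genes of any kind. Over all genes tested there were 5 calls without the trend, 0 with no filter, 0 without either AAV-GFP sample, and 15 or 34 without an AAV-Shisa3 sample. With a sample left out, the lone sample of a group is assumed to vary like the other group, which supplies the spread. For a single gene, 2 samples per group allow no p smaller than 0.333 in an exact permutation test (two-sided).

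**Figure D3:**
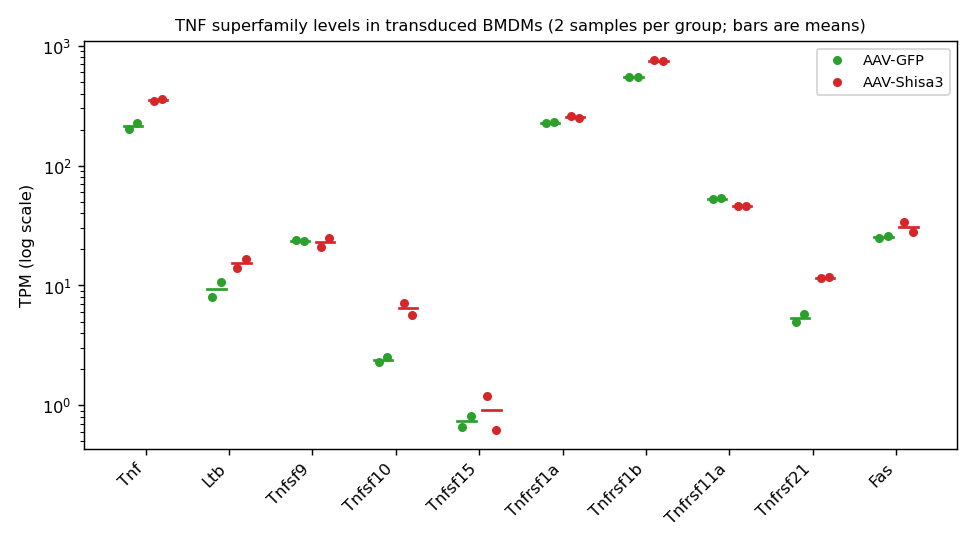
TPM of each gene (log scale) in the 2 AAV-GFP and 2 AAV-Shisa3 samples, with bars at the group means. The groups are apart for Tnf, Ltb, Tnfsf10, Tnfrsf1a, Tnfrsf1b, Tnfrsf11a, Tnfrsf21 and Fas, and overlap for Tnfsf9 and Tnfsf15.

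With AAV-GFP, Tnf was at 204 and 226 TPM, and its level was 349 and 363 TPM in the cells given AAV-Shisa3. Both AAV-Shisa3 samples were above both controls, and the ratio of the means was 1.66. The log2 fold change was 0.73 ± 0.080 (SE, n = 2 per group; adjusted p = 0.0179, limma). Tnfsf10 had 2.28 and 2.52 TPM in the controls and 7.19 and 5.72 TPM with AAV-Shisa3, apart in the same direction. At a log2 fold change of 1.13 ± 0.17 (adjusted p = 0.0269, limma) it had the highest fold of the 10, from a low level.

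Ltb had a change close to that of its neighbour Tnf but did not pass. It was at 8.07 and 10.7 TPM in the controls against 14.0 and 16.8 TPM, with the groups apart. Its log2 fold change was 0.67 ± 0.17 (adjusted p = 0.0721, limma), and it passed with the samples centred on their medians (adjusted p = 0.0460, limma). Tnfsf9 was at 23.8 and 23.5 TPM in the controls and at 21.1 and 24.7 TPM with AAV-Shisa3, so the groups overlapped. Its log2 fold change of -0.05, which turned to 0.07 with centred samples, had a 95% interval of -0.32 to 0.22 (adjusted p = 0.801, limma). Tnfsf15 averaged less than the 1 TPM needed for the test, at 0.66 and 0.82 TPM in the controls against 1.20 and 0.62 TPM, and the groups overlapped.

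Tnfrsf1b was at 546 and 550 TPM in the controls against 763 and 744 TPM, with a gap between the groups far wider than the spread within them. The log2 fold change was 0.46 ± 0.065 (adjusted p = 0.0242, limma). Tnfrsf1a was at 225 and 232 TPM in the controls and 260 and 249 TPM with AAV-Shisa3. Both samples were above both controls, but its log2 fold change of 0.15 ± 0.070, or 0.27 with centred samples, did not pass (adjusted p = 0.216, limma). The ratio of Tnfrsf1b to Tnfrsf1a TPM was 2.43 and 2.36 with AAV-GFP and 2.94 and 2.99 with AAV-Shisa3, so its values in the groups did not overlap. Tnf to Tnfrsf1b was 0.373 and 0.411 in the controls and 0.457 and 0.488 with AAV-Shisa3, below 1 in every sample. Neither ratio was tested.

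Tnfrsf21 was at 5.00 and 5.75 TPM in the controls, whereas the AAV-Shisa3 samples had 11.65 and 11.66 TPM. The groups were apart, and the log2 fold change of 0.99 ± 0.13 passed the test (adjusted p = 0.0216, limma). This direction was opposite to that in LPS, where the gene was 3.13-fold lower at 4 h. The experiments are in separate tables with separate scalings, and the difference between them was not tested.

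Fas was at 25.1 and 26.1 TPM in the controls and 33.9 and 28.1 TPM with AAV-Shisa3, both above, with a log2 fold change of 0.26 ± 0.12 (adjusted p = 0.208, limma), which was 0.13 without AAV-Shisa3 sample 1 and 0.39 without sample 2. Tnfrsf11a was the only member with both AAV-Shisa3 samples below both controls, at 52.3 and 53.4 against 45.7 and 45.7 TPM. Its log2 fold change of -0.21 ± 0.079 did not pass (adjusted p = 0.162, limma) and was -0.09 with centred samples (adjusted p = 0.513, limma).

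**Figure D4:**
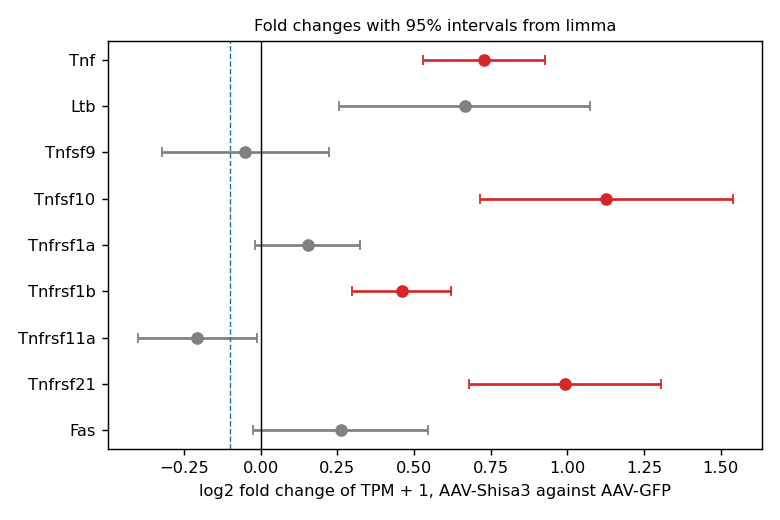
log2 fold change of TPM + 1 (AAV-Shisa3 against AAV-GFP) of the 9 genes tested, with 95% intervals from limma, and genes with an adjusted p under 0.05 in red. The dashed line is the median of all genes tested, at -0.10. Tnf, Tnfsf10, Tnfrsf1b and Tnfrsf21 lie to the right of 0, and the intervals of Tnfsf9, Tnfrsf1a and Fas include it.

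The order of the levels among the 10 genes can be read from TPM, which is a measure per length. With AAV-GFP, Tnfrsf1b was highest (548 ± 2.51 TPM, SD, n = 2), followed by Tnfrsf1a (229 ± 5.34) and Tnf (215 ± 15.6), whose ranges overlapped. Tnfrsf11a, Fas, Tnfsf9, Ltb, Tnfrsf21, Tnfsf10 and Tnfsf15 followed in that order, with no overlap between neighbours. With AAV-Shisa3, Tnf (356 ± 10.1 TPM) stood above Tnfrsf1a (254 ± 7.45) without overlap, and the other places were the same. The summed TPM of the 10 genes was 1092 and 1131 with AAV-GFP and 1506 and 1490 with AAV-Shisa3, of which Tnf, Tnfrsf1a and Tnfrsf1b together made up 89.1% to 91.1%.

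The other ligands of the superfamily were mostly too low to test in the transduced cells, since 2 of 13 passed the filter and neither was called. Tnfsf13, which encodes APRIL, was at 3.10 and 3.12 TPM in the controls and 5.47 and 4.80 TPM with AAV-Shisa3 (log2 fold change 0.58, adjusted p = 0.0780, limma). Tnfsf12, which encodes TWEAK, had overlapping groups, at 18.2 and 13.7 against 17.6 and 15.8 TPM. After 4 h of LPS, 5 of the 9 kept in that table were at least 2-fold higher and 3 were lower, against 22.2% and 23.6% of all genes. The count of higher genes rests on low reads, since it takes in Cd70 and Eda, with 4 and 3 reads at 4 h and 0 before LPS. With a pseudocount of 5 it was 2, where that of all 17854 genes was 3018 in place of 3958. With a mean of at least 5 it was 2 of the 6 kept, against 3110 of all 14482 genes. Tnfsf4 (OX40 ligand) was at 0.257 RPM (0.0998 to 0.660) before LPS, 11.3 (9.10 to 14.0) after 2 h and 3.03 (2.49 to 3.69) after 4 h, so it was highest at 2 h and 3.33-fold lower at 4 h than at 2 h. Tnfsf12 was 3.02-fold lower at 4 h than at 0 h. Lta, on the other side of Tnf, had 0, 0 and 25 reads, which makes it at least 7.04-fold higher at 4 h against a floor of 3 reads at 0 h (3.98-fold with equal library totals). Cd70 (CD27 ligand) had 0, 1 and 4 reads, too few to describe.

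Among the other receptors, 1 of the 11 tested with AAV-Shisa3 was called higher and 0 lower (2.23% and 4.1% of all genes), with a median log2 fold change of -0.05. Cd40, the receptor through which T cells activate macrophages, was higher, at 113 and 99.6 TPM in the controls against 210 and 180 TPM (log2 fold change 0.86 ± 0.11, adjusted p = 0.0216, limma). It was also 136-fold higher after 4 h of LPS. Relt was at 6.26 and 11.5 against 4.72 and 5.31 TPM (adjusted p = 0.172, limma), Tnfrsf26 at 13.1 and 11.4 against 10.7 and 9.19 TPM (adjusted p = 0.231), and Tnfrsf8 (CD30) at 1.22 and 0.83 against 1.64 and 1.30 TPM (adjusted p = 0.421). In LPS, 6 of the 18 kept were at least 2-fold higher and 3 lower at 4 h, where 22.2% and 23.6% of all genes were. With equal library totals 4 were higher and 5 lower, against 13.1% and 43.9%. The 6 take in Tnfrsf13c, with 0 reads before LPS and 6 at 4 h. With a pseudocount of 5 the count of higher genes was 4, where that of all 17854 genes was 3018 in place of 3958. Tnfrsf9, the 4-1BB receptor of Tnfsf9, was at 0.257 RPM (0.0998 to 0.660) before LPS, 14.0 (11.6 to 17.05) after 2 h and 12.9 (11.7 to 14.2) after 4 h, with overlapping intervals at the later times. Tnfrsf8 was 12.5-fold higher at 4 h, and Tnfrsf26 was 4.79-fold lower.

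Of the 24 signalling proteins downstream of the receptors, all were tested with AAV-Shisa3, and 1 was higher and 1 lower, near the 2.23% and 4.1% of all genes, with a median log2 fold change of -0.11. Nfkbia, the NF-kB inhibitor that is itself induced by NF-kB, was higher, at 562 and 563 against 729 and 712 TPM (log2 fold change 0.36 ± 0.065, adjusted p = 0.0382, limma). Ripk1, the kinase recruited to TNFR1, was lower, at 57.0 and 57.3 against 44.1 and 41.9 TPM (-0.40 ± 0.081, adjusted p = 0.0466, limma), and did not pass with centred samples (adjusted p = 0.107). Tnfaip3 (A20), a brake on TNF receptor signalling, was at 78.2 and 89.9 against 107 and 117 TPM (adjusted p = 0.0671, limma). Map3k14 (NIK), the kinase of the noncanonical NF-kB pathway, was at 9.37 and 9.34 against 5.44 and 6.36 TPM (adjusted p = 0.0586, limma). The adaptor gene Traf5 had overlapping groups, at 8.86 and 4.74 against 4.23 and 5.46 TPM. In LPS, 11 of the 24 were at least 2-fold higher at 4 h and 3 lower, against 22.2% and 23.6% of all genes (8 and 3 with equal library totals, against 13.1% and 43.9%), led by Tnfaip3 (87.5-fold), Traf1 (56.7-fold), Nfkbia (24.6-fold) and Cflar (14.4-fold), a caspase-8 inhibitor.

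The 8 genes listed for the shedding of TNF and its receptors encode proteases, their partners and a protease inhibitor (Timp3, too low to test). Of the 7 tested, 1 was called higher with AAV-Shisa3 (2.23% of all genes) and 0 lower (4.1%). Rhbdf2 encodes iRhom2, the partner that carries the TNF-converting enzyme ADAM17 to the surface of macrophages. It was higher, at 106 and 116 against 156 and 161 TPM (log2 fold change 0.51 ± 0.080, adjusted p = 0.0295, limma), and it was 13.1-fold higher at 4 h of LPS. Frmd8, another partner of that complex, was at 58.2 and 65.2 against 47.0 and 49.4 TPM (adjusted p = 0.0832, limma), and the protease gene Adam10 at 29.9 and 35.4 against 41.5 and 41.2 TPM (adjusted p = 0.118). Sppl2b, an intramembrane protease that cuts the TNF stub, was at 20.2 and 21.9 against 19.4 and 17.5 TPM (adjusted p = 0.323). At 4 h of LPS, 4 of the 8 were at least 2-fold higher and 1 lower, against 22.2% and 23.6% of all genes, and with equal library totals 2 were higher and 2 lower, against 13.1% and 43.9%. Adam17 itself was 2.49-fold higher (1.41-fold with equal library totals), Sppl2a 4.10-fold higher, and Sppl2b 2.33-fold lower. The 4 higher genes take in the inhibitor gene Timp3, at 2.31-fold (1.30-fold with equal library totals).

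**Figure D5:**
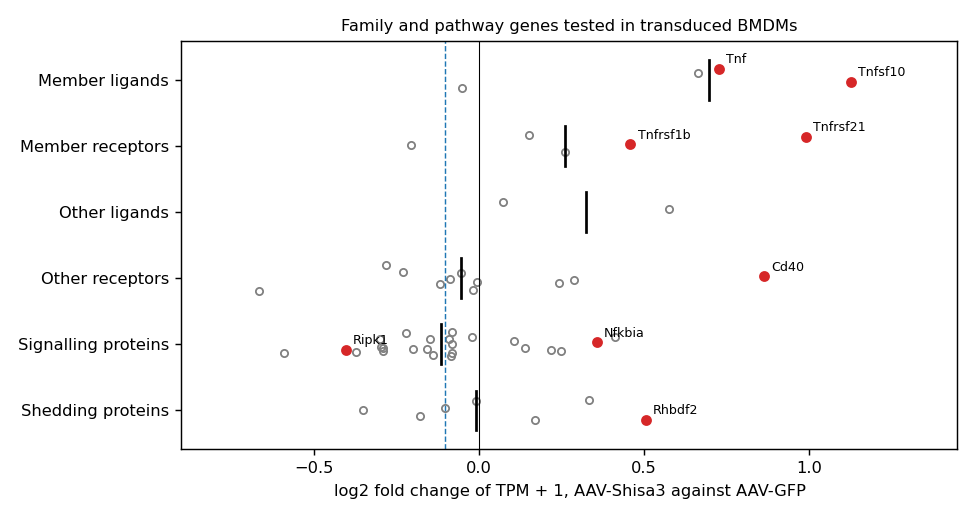
log2 fold change of TPM + 1 (AAV-Shisa3 against AAV-GFP) of each gene tested, by role, with the median of each list as a black bar and the median of all genes (-0.10) as a dashed line. Red points have an adjusted p under 0.05. Of the 44 pathway genes tested outside the 10, 3 were higher (Cd40, Nfkbia and Rhbdf2) and 1 was lower (Ripk1).

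The 4 pathway calls with AAV-Shisa3 (3 higher, 1 lower) were lost under the same settings as those of the member genes, without the trend, without the filter and with any 1 sample left out. The median of the 44 pathway genes was -0.08, near that of all genes. In LPS, 26 of the 59 pathway genes kept were at least 2-fold higher at 4 h and 10 were lower, against 22.2% and 23.6% of all genes. With equal library totals 18 were higher and 13 lower, against 13.1% and 43.9% of all genes. The 26 take in Lta, Cd70, Eda and Tnfrsf13c, which had 0 reads before LPS. With a pseudocount of 5 the count of higher genes was 21, where that of all 17854 genes was 3018 in place of 3958.

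The genes whose pattern was most like that of Tnf were taken by the distance between their 3 log2 values (LPS 2 h and 4 h against 0 h, and AAV-Shisa3 against AAV-GFP), over 10531 genes measured in both tables. Socs3, a feedback inhibitor of cytokine signalling, was nearest, with a distance of 0.268 and log2 values of 7.99, 7.36 and 0.82, where Tnf had 8.03, 7.11 and 0.73. Il12b (0.705), the p40 chain of IL-12 and IL-23, Socs1 (0.746), Abtb2 (0.936) and the chemokine gene Cxcl1 (1.02) followed. The LPS values share 1 unstimulated library, and each likeness rests on 7 libraries.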

How the data were processed

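RNA-seq of 7 BMDM libraries was analysed from 2 deposited tables. The LPS table held, per the authors' scaling, a signal per gene that was 1 step per library times a whole number of reads (100% of values within 0.01 of a whole number), so reads were recovered. The transduction table held deposited values read as TPM, because each sample summed to between 999778 and 999818, just under the 1000000 of TPM. That unit is inferred. The submitters' processing notes name the build mm9, and the aligner, counter and normalization tools are not given in the sources used here. Positions and lengths came from GENCODE M21 on GRCm38, not from the files. RPKM was computed from the recovered reads and those lengths.

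TPM were compared on the log2(TPM + 1) scale, which understates changes of low genes, with limma 3.58.1 (R 4.3.3), with a trend, for genes that averaged 1 TPM or more, and with Benjamini-Hochberg adjustment over all genes at 0.05. The design also allowed for a count table, and that branch was not needed. LPS libraries were compared as log2(value + 1) differences for genes averaging 1 or more, with a 2-fold limit, 95% Wilson intervals for shares of reads and exact (Clopper-Pearson) intervals for ratios of reads. TMM factors came from edgeR 4.0.16. The test was tried on simulated data. The members and the gene lists were chosen with earlier results of these data known. The named genes were the 10 members, pathway genes past the threshold, up to 4 per pathway list with the highest absolute change in each experiment, and the 5 genes most like Tnf. Alternatives were the trend, centring, filters, pseudocounts, the replicate block, library totals, TMM factors and leaving out each sample. Intervals and floors cover counting error only, since reads carried no molecular identifiers.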

Additional observations from a re-analysis of the deposited data

How the results depend on the processing

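With AAV-Shisa3, all genes called were 250 higher and 460 lower (921 and 2216 at an unadjusted p under 0.05). They became 1 and 4 without the trend, 410 and 230 with centred samples, 0 and 0 with no filter (1118 and 2411 unadjusted, limma), 424 and 851 with the replicate block, and 0 to 27 higher and 0 to 7 lower with 1 sample left out. Members called higher fell from 4 to 0 without the trend, with no filter and in each fit with 1 sample left out (range 0 to 0, limma), where 5, 6 and 5 were higher at an unadjusted p under 0.05. Pathway genes called higher fell from 3 to 0 and called lower from 1 to 0 under the same settings (range 0 to 0 with 1 sample left out). Pathway genes called lower were also 0 with centring, and 2 with at least 1 TPM in every sample (Ripk1 and Map3k14). Tnfaip3 was called higher under both of these settings. Replicate numbers were shared by the groups, but with only 2 pairs (r = 0.188 between deviations) they share only a number. The replicate block called 5 members and 4 pathway genes higher and 2 pathway genes lower. It added Ltb (adjusted p = 0.0264, limma) and Tnfaip3 as higher and Map3k14 as lower. Tnfsf9 turned to 0.066 with centring and ranged from -0.16 to 0.061 with 1 sample left out, Tnfsf12 from -0.12 to 0.27 and Traf5 from -0.76 to 0.018. For Tnfsf12 the value without AAV-Shisa3 sample 1 was -0.0011. In LPS with equal library totals, all genes were 2438 higher and 7117 lower at 2 h (in place of 3668 and 4406) and 2335 and 7845 at 4 h (in place of 3958 and 4207). Members lower were then 1 at 2 h (Tnfrsf21), where 39.9% of all genes were lower. They were 2 from 2 h to 4 h (Tnf and Tnfsf9), where 17.5% of all genes were lower. With centring, pathway genes lower were 5 at 2 h and 6 at 4 h of the 59 kept, against 3454 and 3036 of all 17854 genes. From 2 h to 4 h, all genes were 1830 higher and 1551 lower with a pseudocount of 5, and 2110 higher with a mean of at least 5. Centring moved the share of 2-fold differences that were higher at 4 h from 48.5% to 63.5%, and equal library totals moved it to 22.9%. The causes were not tested. LPS differences have no replicate check, and the 2 h library is the shallowest.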

Other observations

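The untreated library and the AAV-GFP samples, for which no LPS is mentioned, can be set side by side by ratios of Tnf and the TNF receptors. Tnf to Tnfrsf1a per length was 0.240 in the untreated library (95% counting interval 0.207 to 0.278) and 0.906 and 0.971 in the AAV-GFP samples. Tnfrsf1b to Tnfrsf1a was 4.60 in the untreated library and 2.43 and 2.36 with AAV-GFP. Tnfsf9 to Tnf was 0.304 in the untreated library, 0.117 and 0.104 with AAV-GFP, and 0.0604 and 0.0681 with AAV-Shisa3. After 2 h and 4 h of LPS, Tnfsf9 to Tnf was 0.150 and 0.110. At the same times Tnf to Tnfrsf1a was 15.3 and 6.64, and Tnfrsf1b to Tnfrsf1a was 7.51 and 8.80. The values come from separate tables, and the untreated group is 1 library, so the difference was not tested. The LPS experiment's ratios used GENCODE M21 lengths, and the lengths behind the TPM are not given. Ratios between genes depend on these lengths, and their part in the differences was not tested.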
